A study of Mus musculus with 24 samples.

Results

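The 10 genes described here mark the passage from neural progenitor to early neuron: Neurog1, Neurog2, Hes5, Neurod1, Nhlh1, Isl1, Dcx, Elavl3, Elavl4 and Stmn2. They were taken by gene symbol from the count table of whole mouse embryos at embryonic day 9.5, where all 10 were among the 55421 genes listed and all 10 passed the filter on low counts (19215 genes tested). In the yolk sac table, used as background, 3 of the 10 passed it. The mice were C57BL/6 and carried 1 of 2 mutant alleles of Setd2, which encodes the enzyme that trimethylates lysine 36 of histone H3: a null allele or one that is catalytic dead (CD). Each line gave wild-type (WT), heterozygous (HE) and homozygous (HO) groups with 2 libraries each, so each tissue has 6 groups and 12 libraries. No Cre, transgene or drug is named in the labels, and the sources used here do not give how either allele was made, the litters or the number of animals behind a library. The labels do not say whether replicates were separate animals. By the sex transcripts given below, the replicates of null HO and CD HE embryos and of null HE and null HO yolk sacs differed in sex and so did not come from 1 animal. For the other groups the p-values may reflect technical variation only.

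In the neural tube and cranial ganglia, a progenitor becomes a neuron through a relay of basic helix-loop-helix (bHLH) transcription factors. Neurog1 and Neurog2, the neurogenins, start the programme and switch on Delta ligands, which activate Notch in neighbouring cells. Notch signalling in those cells, acting through the DNA-binding protein RBPJ, turns on Hes5, a bHLH repressor that keeps them as progenitors. Neurod1 and Nhlh1 act downstream of the neurogenins, Isl1 is a LIM homeodomain factor of motor and sensory neurons, and Dcx, Elavl3, Elavl4 and Stmn2 encode proteins of the young neuron: a microtubule-binding protein, a pair of neuronal RNA-binding proteins and a microtubule-destabilising protein of growing axons. Isl1 is also expressed in cells outside the nervous system, among them heart progenitors and the hindlimb bud.

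Total counts ran from 23414255 to 27674831 in embryos and from 16400137 to 22113787 in yolk sacs. The unit of level is CPM, the count relative to the library total after TMM scaling. Changes are on the log2 scale with the standard error (SE). A change was called at an adjusted p under 0.05 (edgeR quasi-likelihood test, Benjamini-Hochberg adjustment over all genes tested), and every adjusted p below is of that kind unless another test is named. As a check of the labels, Setd2 stood at 231 ± 2.12 CPM in null WT, 163 ± 8.27 in null HE and 98.7 ± 7.63 in null HO embryos (SD, n = 2), and at 239 ± 21.7, 227 ± 6.37 and 215 ± 3.86 CPM in the CD groups. In the null yolk sacs the order ran against the labels, with 108 ± 8.12 CPM in the libraries labelled WT, 117 ± 3.99 CPM in HE and 77.3 ± 2.38 CPM in HO. The CD yolk sacs held 184 ± 8.59, 180 ± 13.3 and 193 ± 1.44 CPM. What the null comparison in yolk sac stands for is limited by this. By Xist and Y-linked transcripts, the null WT embryo libraries were female, the null HE libraries male and the null HO libraries 1 of each. The CD WT libraries were male, the CD HE libraries 1 of each and the CD HO libraries female. CD WT and CD HO embryos therefore differ in sex as well as genotype, and Dcx lies on the X chromosome. So do null WT and null HE embryos, and CD WT and null WT embryos differ in sex as well as line.

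The embryo library CD WT replicate 2 stood apart from its partner, and every comparison with CD WT rests on it. It had the lowest Neurod1 level of the 12 embryo libraries (0.0416 CPM, 1 count) and the highest Stmn2 level (15.8 CPM). The summed level of 12 visceral endoderm markers, genes of the tissue that lines the yolk sac, was 803.6 CPM in it, against 109.9 CPM in CD WT replicate 1, 64.5 to 70.5 CPM in CD HE, 17.5 to 22.8 CPM in CD HO, 48.4 to 57.5 CPM in null WT, 35.3 to 50.3 CPM in null HE and 30.7 to 88.1 CPM in null HO. At most 1 of the 12 markers was at 0 in any embryo library. The part of these markers, of its stage or of its dissection in the values below was not tested. In whole embryos, fewer cells of a type and less RNA per cell cannot be told apart.

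Which letters lie in front of these genes bears on the relay described above, since bHLH activators bind the E-box (CANNTG) and RBPJ binds GTGGGAA. RefSeq (GRCm38.p6) gave windows of 250 bases before the start for 9 of the 10 genes, all but Stmn2. The Hes5 window held the RBPJ letters at 2 places (TTCCCAC on the printed strand, 226 bases before the start, and GTGGGAA, 83 bases before it). Of 32817 windows of this length 5.42% held them at least once and 0.162% at 2 or more places. An E-box stood in a window of 6 of the 9 genes, and in 66.2% of all windows, a share near that of the members. The 2 are not counted alike, since Elavl4 has 4 windows and Dcx 2. The first Elavl4 window, before the start of the gene, held 0 E-boxes. No window of Neurog1, Neurog2 or Dcx held an E-box. Letters of the RE1 element, which binds the repressor REST, were in none of the members' windows and in 0.0335% of all windows. Both strands were searched, the motifs do not overlap each other in the windows shown, and a match is a description of letters, not a shown site. The 6 windows below were chosen to show the paired RBPJ letters, genes with 1 to 3 E-boxes and a gene with neither. E-boxes and RBPJ letters are in capitals, the rest in lower case, 5′ to 3′ on the gene's strand.
Hes5, chr4:154960673-154960921, plus strand: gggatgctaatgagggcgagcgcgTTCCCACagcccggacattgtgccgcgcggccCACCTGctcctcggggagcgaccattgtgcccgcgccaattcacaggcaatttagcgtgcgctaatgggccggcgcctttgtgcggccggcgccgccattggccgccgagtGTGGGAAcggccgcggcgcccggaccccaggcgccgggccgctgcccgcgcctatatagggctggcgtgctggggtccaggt
Neurog2, chr3:127632886-127633134, plus strand: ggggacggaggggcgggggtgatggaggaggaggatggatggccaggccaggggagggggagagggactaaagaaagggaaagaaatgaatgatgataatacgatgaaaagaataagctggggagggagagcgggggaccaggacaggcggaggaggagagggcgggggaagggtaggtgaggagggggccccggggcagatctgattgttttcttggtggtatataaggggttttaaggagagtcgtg
Nhlh1, chr1:172057598-172057846, minus strand: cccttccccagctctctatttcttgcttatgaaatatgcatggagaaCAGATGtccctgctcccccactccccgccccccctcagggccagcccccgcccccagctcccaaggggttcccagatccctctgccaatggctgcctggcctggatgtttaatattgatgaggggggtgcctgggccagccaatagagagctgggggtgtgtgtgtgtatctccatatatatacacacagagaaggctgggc
Elavl3, chr9:22052025-22052273, minus strand: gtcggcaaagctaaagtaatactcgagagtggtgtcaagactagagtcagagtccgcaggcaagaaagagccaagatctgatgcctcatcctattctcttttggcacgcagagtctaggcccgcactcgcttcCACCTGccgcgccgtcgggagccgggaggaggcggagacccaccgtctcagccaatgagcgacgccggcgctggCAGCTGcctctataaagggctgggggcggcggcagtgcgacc
Elavl4, second of its 4 windows, chr4:110287529-110287777, minus strand, within the gene and upstream of an internal start: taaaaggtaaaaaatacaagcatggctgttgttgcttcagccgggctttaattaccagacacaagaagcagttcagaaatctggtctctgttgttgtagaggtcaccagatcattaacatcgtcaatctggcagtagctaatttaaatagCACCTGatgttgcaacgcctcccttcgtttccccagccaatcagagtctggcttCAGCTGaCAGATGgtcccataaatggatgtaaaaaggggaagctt
Isl1, chr13:116309690-116309938, minus strand: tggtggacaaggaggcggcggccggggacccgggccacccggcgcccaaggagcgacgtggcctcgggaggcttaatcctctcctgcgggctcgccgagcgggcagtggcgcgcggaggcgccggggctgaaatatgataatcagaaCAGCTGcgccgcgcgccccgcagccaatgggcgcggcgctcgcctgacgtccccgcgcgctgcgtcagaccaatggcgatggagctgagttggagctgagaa

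Per unit of transcript length, by the deposited FPKM values in null WT embryos, Isl1 was the highest of the 10 genes at 6.04 ± 0.112 FPKM (SD, n = 2), followed by Neurog2 (4.40 ± 0.07), Hes5 (3.66 ± 0.143), Elavl4 (3.13 ± 0.0559), Neurog1 (3.05 ± 0.277) and Neurod1 (1.99 ± 0.000341). Stmn2 (1.18 ± 0.16), Elavl3 (1.05 ± 0.12), Nhlh1 (0.935 ± 0.46) and Dcx (0.649 ± 0.0334) were the lowest. Elavl4 and Neurog1 did not differ beyond their spread, nor did Stmn2, Elavl3 and Nhlh1 from each other. In null HO embryos the order was another one: Isl1 stayed highest at 5.13 ± 1.77 FPKM, Stmn2 (1.23 ± 0.231) and Hes5 (1.14 ± 0.711) came next and did not differ beyond their spread, and Dcx (0.0779 ± 0.0336), Elavl3 (0.0675 ± 0.0408) and Nhlh1 (0.0393 ± 0.0317) were lowest.

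**Figure D1:**
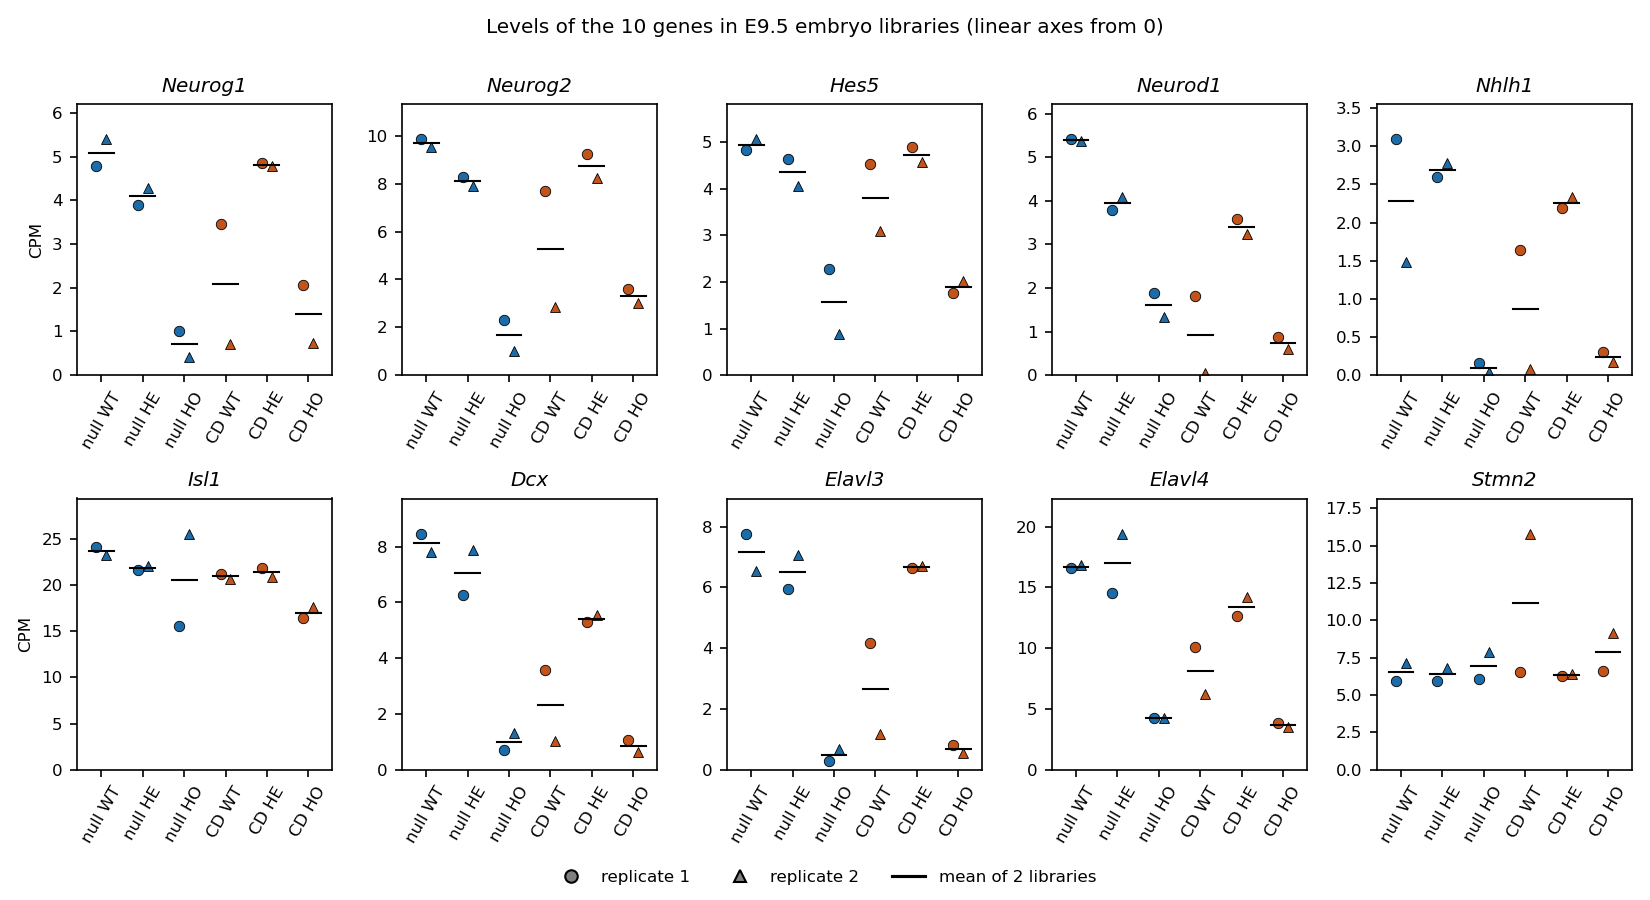
Levels in CPM (vertical axes, linear from 0) of the 10 genes in the 12 embryo libraries, by line and genotype; circles and triangles are replicates 1 and 2 and bars are means of 2 libraries. In 8 panels the null HO and CD HO points sit below the HE points, and CD WT replicate 2 lies below CD WT replicate 1; Isl1 and Stmn2 do not follow this pattern.

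Homozygous null embryos were compared with null WT to ask how loss of Setd2 affects these genes. Of the 10, 8 fell and 2, Isl1 and Stmn2, did not pass the test; over all genes tested, 16.5% were called lower. The median change over the 10 genes was -2.25 (log2), against 0.0148 over all genes tested. For each of the 8, both HO libraries lay below all 4 WT and HE libraries of the line, as they did for 26.8% of all genes tested.

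Among the factors that start neurogenesis, Neurog1 (ENSMUSG00000048904, mm10 chromosome 13, 56250478 to 56252163, minus strand) stood at 4.79 and 5.40 CPM in null WT, 3.91 and 4.29 CPM in null HE and 1.002 and 0.419 CPM in null HO. Its change from WT to HO was -2.82 (SE 0.59, adjusted p = 0.00343), which left 14% of the WT level. Neurog2 (ENSMUSG00000027967, chromosome 3, 127633135 to 127635631, plus strand) stood at 9.85 and 9.54 CPM in WT, 8.28 and 7.91 CPM in HE and 2.31 and 1.01 CPM in HO, a change of -2.53 (SE 0.40, adjusted p = 0.000565). In both genes the replicates within WT and HE lay close together, and the HO replicates differed from each other by more than the WT replicates did, in proportion to their level.

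Hes5 (ENSMUSG00000048001, chromosome 4, 154960923 to 154962371, plus strand), the Notch-driven repressor with the paired RBPJ letters shown above, stood at 4.83 and 5.06 CPM in WT, 4.64 and 4.06 CPM in HE and 2.27 and 0.881 CPM in HO. It fell with the neurogenins rather than against them, by 1.63 on the log2 scale (SE 0.32, adjusted p = 0.00216). The antisense gene Gm20421 covers 31.8% of the Hes5 exon bases, and the sources used here do not say whether counting used strand. Reads of the pair could be mixed.

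The next factors in the relay fell by unequal amounts. Neurod1 (ENSMUSG00000034701, chromosome 2, 79452521 to 79456751, minus strand) stood at 5.41 and 5.36 CPM in WT, 3.79 and 4.10 CPM in HE and 1.89 and 1.34 CPM in HO, a change of -1.73 (SE 0.55, adjusted p = 0.0296). This call was lost without null WT replicate 1 (adjusted p = 0.0995), null WT replicate 2 (0.101) or null HO replicate 2 (0.0989), with a sex term (0.0516) and in the DESeq2 Wald test (DESeq2 adjusted p = 0.217), while the change itself stayed at -1.53 to -1.79 in these fits. Nhlh1 (ENSMUSG00000051251, chromosome 1, 172052292 to 172057573, minus strand) was all but gone: 80 and 39 counts in WT (3.09 and 1.48 CPM) and 67 and 70 in HE (2.59 and 2.78 CPM) stood against 4 and 1 in HO (0.154 and 0.0419 CPM). Its change was -4.44 (SE 0.95, adjusted p = 0.00376), which rests on these few counts. Exons of Cerkl on the same strand cover 7.37% of the Neurod1 exon bases and the antisense Gm26755 5.64%, so its counts are uncertain to that extent.

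Genes of the young neuron split. Dcx (ENSMUSG00000031285, chromosome X, 143855842 to 143933311, minus strand) stood at 8.46 and 7.79 CPM in WT, 6.27 and 7.87 CPM in HE and 0.694 and 1.30 CPM in HO, a change of -3.03 (SE 0.43, adjusted p = 0.000278). The male HO library (replicate 1) was the lower of the HO pair, and both lay far below the all-male HE group. Elavl3 (ENSMUSG00000003410, chromosome 9, 22015005 to 22052023, minus strand) stood at 7.76 and 6.54 CPM in WT, 5.96 and 7.08 CPM in HE and 0.27 and 0.671 CPM in HO (-3.93, SE 0.50, adjusted p = 0.000144), with 3.72% of its exon bases shared with Gm49318. Its paralogue Elavl4 (ENSMUSG00000028546, chromosome 4, 110203722 to 110351909, minus strand) kept more of its level: 16.6 and 16.8 CPM in WT, 14.5 and 19.4 CPM in HE and 4.28 and 4.24 CPM in HO (-1.97, SE 0.21, adjusted p = 4.4e-05). In HO, 6.58% of the WT level remained for Elavl3 and 25.5% for Elavl4; the difference between the paralogues was not tested.

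Stmn2 and Isl1 stood outside this fall. Stmn2 (ENSMUSG00000027500, chromosome 3, 8509360 to 8561606, plus strand) read 5.95 and 7.15 CPM in WT, 5.92 and 6.84 CPM in HE and 6.05 and 7.88 CPM in HO, with full overlap of the groups (0.09, SE 0.32, adjusted p = 0.862). Isl1 (ENSMUSG00000042258, chromosome 13, 116298281 to 116309689, minus strand) read 24.1 and 23.3 CPM in WT, 21.7 and 22.1 CPM in HE and 15.6 and 25.5 CPM in HO (-0.21, SE 0.17, adjusted p = 0.372). The HO replicates of Isl1 lay on either side of all WT and HE libraries. Without null HO replicate 2, the higher of the pair, the Isl1 change from HE to HO was -0.51, and without replicate 1 it was 0.22. The sign and size of the Isl1 change thus depended on which HO library was kept. Of 14 genes of the second heart field and hindlimb, where Isl1 is also expressed, 6 rose in null HO and 0 fell (16.2% of all genes tested rose), and in CD HO 0 rose and 1 fell. Those that rose in null HO included Hand1 (from 39 ± 5.49 to 68.9 ± 17.8 CPM; 0.82, SE 0.16, adjusted p = 0.00209) and Tbx20 (from 60.3 ± 0.288 to 129 ± 61.8 CPM; 1.10, SE 0.23, adjusted p = 0.00316), both cardiac transcription factors. The part of these cells in the Isl1 values was not tested.

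In catalytic dead homozygotes against CD WT, 3 of the 10 genes fell and 7 did not pass, beside 9.14% of all genes tested called lower. The 3 were Hes5, Elavl3 and Elavl4, and the median change of the 10 was -0.84. Hes5 read 4.54 and 3.08 CPM in CD WT and 1.76 and 2.02 CPM in CD HO (-1.01, SE 0.32, adjusted p = 0.0473). Elavl3 read 4.17 and 1.17 CPM in CD WT and 0.804 and 0.558 CPM in CD HO (-1.96, SE 0.51, adjusted p = 0.0231), and Elavl4 10.1 and 6.21 CPM against 3.83 and 3.47 CPM (-1.16, SE 0.22, adjusted p = 0.00459). In these 3 genes and in Isl1 both HO libraries lay below both WT libraries, as in 28.3% of all genes tested, and in the 3 CD WT replicate 2 was the WT library nearer to HO.

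For 5 of the other genes, the level in CD WT replicate 2 fell within the range of the CD HO pair or below it. Neurog1 read 3.45 and 0.708 CPM in CD WT and 2.07 and 0.729 CPM in CD HO (-0.56, SE 0.58, adjusted p = 0.561), and Neurog2 7.71 and 2.83 CPM against 3.60 and 3.002 CPM (-0.68, SE 0.38, adjusted p = 0.255). Neurod1 read 1.81 and 0.0416 CPM against 0.88 and 0.60 CPM (-0.32). Nhlh1 read 1.65 and 0.0833 CPM against 0.306 and 0.171 CPM (-1.83, adjusted p = 0.199), and Dcx read 3.57 and 1.04 CPM against 1.07 and 0.643 CPM (-1.41, adjusted p = 0.0684). Isl1 (21.2 and 20.7 CPM against 16.4 and 17.6 CPM; -0.30, adjusted p = 0.256) did not overlap between the groups. Stmn2 did (6.54 and 15.8 CPM against 6.58 and 9.13 CPM; -0.51, adjusted p = 0.302).

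The count of 3 rests on single libraries. Without CD WT replicate 2, 7 of the 10 were called lower, beside 8.67% of all genes tested: Neurog2 (-1.23), Hes5 (-1.28), Neurod1 (-1.28), Nhlh1 (-2.75), Dcx (-2.05), Elavl3 (-2.61) and Elavl4 (-1.48). Without CD WT replicate 1, Neurod1 was called higher in CD HO, at 4.01 (adjusted p = 0.00576), a value that rests on the 1 count left in the WT arm, while Elavl4 and Stmn2 (-1.01) were called lower (3.47% of all genes tested were higher and 6.01% lower). Without either CD HO replicate, Elavl4 alone remained called. The lone library of an arm was assumed to vary like the other groups. With a sex term, Hes5 (-0.59), Elavl3 (-2.18) and Elavl4 (-1.05, adjusted p = 0.067) were no longer called and Isl1 was (-0.69, adjusted p = 0.0486). That term lowered the calls over all genes as well: 3.38% of all genes tested were lower, against 9.14% in the main fit.

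**Figure D2:**
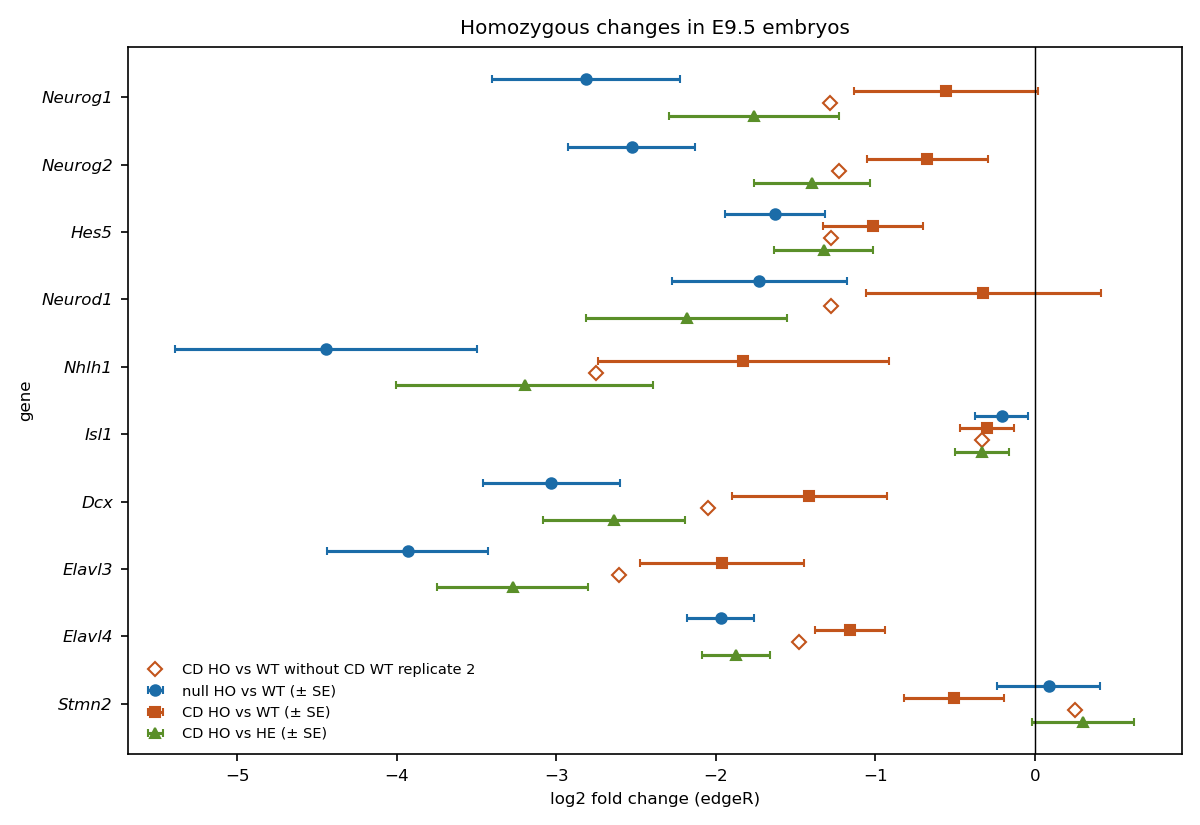
Log2 fold changes (horizontal axis) of the 10 genes for null HO against WT, CD HO against WT and CD HO against HE, each ± SE from edgeR, and for CD HO against WT without CD WT replicate 2 (open diamonds, no error shown). The open diamonds lie to the left of the filled CD HO against WT markers for the 8 genes that fell in null HO, for example -2.05 against -1.41 for Dcx.

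The CD heterozygotes give a reference whose changes do not use the CD WT libraries. The p-values still do in part, since the spread was estimated from all 12 embryo libraries. Against CD HE, 8 of the 10 genes fell in CD HO (11.9% of all genes tested were called lower), with a median of -1.82 over the 10. Elavl3 read 6.65 and 6.72 CPM in CD HE (-3.28, SE 0.47, adjusted p = 0.000752 for HO against HE), Dcx 5.29 and 5.53 CPM (-2.64, SE 0.45, adjusted p = 0.00176) and Elavl4 12.6 and 14.2 CPM (-1.87, SE 0.21, adjusted p = 0.00016). These 3 stayed called with any 1 of the 4 libraries left out.

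Among the transcription factors, Neurog1 read 4.86 and 4.78 CPM in CD HE (-1.76, SE 0.53, adjusted p = 0.0338) and Neurog2 9.24 and 8.23 CPM (-1.40, SE 0.36, adjusted p = 0.0175). Hes5 read 4.90 and 4.56 CPM (-1.325, SE 0.31, adjusted p = 0.0102), Neurod1 3.58 and 3.23 CPM (-2.18, SE 0.63, adjusted p = 0.0272) and Nhlh1 2.19 and 2.34 CPM (-3.20, SE 0.81, adjusted p = 0.0148). For these 8 genes, and for Isl1, both CD HE libraries lay above both CD HO libraries, as in 33.3% of all genes tested. With 1 of the 4 libraries left out, fewer of the 10 genes were called. The share of all genes tested that was called, 22.1% in the main fit, was lower in each of these fits too. Neurog2 (-1.54 to -1.29), Neurod1 (-2.50 to -1.96) and Nhlh1 (-3.69 to -2.88) lost their call whichever of the 4 was left out, with changes of about the same size. Isl1 (-0.33, adjusted p = 0.179) and Stmn2 (0.30, adjusted p = 0.544) did not pass. In the null line, 7 of the 10 were called lower in HO against HE (15.1% of all genes tested), all of the 8 but Neurod1 (-1.28, adjusted p = 0.103).

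Heterozygotes were compared with WT to see whether 1 mutant copy moves these genes. In the null line this cannot be told apart from sex, since the HE libraries were male and the WT libraries female. In the null line edgeR called 0 of the 10 (0.0104% of all genes tested in either direction), 0 had an unadjusted p under 0.05 and DESeq2 called 0. The largest difference was that of Neurod1, at -0.45 (SE 0.50). In the CD line edgeR also called 0 (0.0156% of all genes tested) and DESeq2 0, but 6 had an unadjusted p under 0.05 (8.81% of all genes tested did), and 9 of the 10 changes were above 0 (49.4% of all genes tested; median of the 10 genes 0.96): Neurod1 at 1.86 (adjusted p = 0.446), Elavl3 at 1.316 (0.408) and Dcx at 1.22 (0.436), with Stmn2 at -0.81 (0.511). Without CD WT replicate 1, 7 were called higher in CD HE and Stmn2 lower (1.78% of all genes tested were higher and 2.43% lower). Without CD WT replicate 2, 0 were called.

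As a check on the reference, CD WT was set against null WT, although the CD WT libraries were male and the null WT libraries female. No member was called in edgeR (0.0312% of all genes tested were), 7 had an unadjusted p under 0.05 (14.8% of all genes tested did) and DESeq2 called 3 (2.63% of the genes it gave an adjusted p). CD WT was lower for 9 of the 10 genes, with Neurod1 at -2.52 (SE 0.59, adjusted p = 0.108) and Dcx at -1.81 (SE 0.38, adjusted p = 0.0919), and higher for Stmn2 (0.77, SE 0.31, adjusted p = 0.282). Without CD WT replicate 1, 7 were called lower and Stmn2 higher (2.92% of all genes tested were lower and 5.11% higher), and without CD WT replicate 2, 0 were called.

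Whether the homozygous effect differed between the alleles was tested as the CD effect minus the null effect. edgeR called 0 of the 10 (0.0208% of all genes tested), 5 had an unadjusted p under 0.05 (13.4% of all genes tested did) and DESeq2 called 1 (0.992% of the genes it gave an adjusted p). The difference was above 0, meaning a smaller fall in CD, for the 8 genes that fell in null HO, from 0.61 for Hes5 (SE 0.45, adjusted p = 0.572) to 2.61 for Nhlh1 (SE 1.52, adjusted p = 0.466), and the smallest adjusted p was that of Neurog2 (1.85, SE 0.55, adjusted p = 0.224). The test uses CD WT: without replicate 2 of that group, the Neurog2 difference was 1.31 (adjusted p = 0.411) and 0 were called, and without replicate 1, 8 were called (5.19% of all genes tested). Without null HO replicate 1, 1 was called (4.99% of all genes tested).

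The pathway around these genes was described from lists of related genes, to be read against the shares of all genes tested: 16.5% lower and 16.2% higher in null HO, and 9.14% lower and 6.92% higher in CD HO against CD WT. Of 24 Notch signalling genes, 10 were called lower and 3 higher in null HO (median -0.23), and 2 lower and 1 higher in CD HO against CD WT (median -0.19). The latter were 7 lower and 1 higher without CD WT replicate 2, and 5 lower and 1 higher without replicate 1. The ligand gene Dll1, a neurogenin target, fell from 44.3 ± 1.21 to 22.5 ± 0.935 CPM in null HO (-0.98, SE 0.08, adjusted p = 8.59e-06). In CD HO it fell from 47.4 ± 2.1 to 27.2 ± 2.67 CPM (-0.80, SE 0.08, adjusted p = 7.98e-05). Dll3, whose product damps Notch signalling, fell to 8.71 ± 1.21 CPM in CD HO (-0.95, SE 0.20, adjusted p = 0.00754). Hes1, a Notch-driven repressor related to Hes5, went the other way from it in null HO, from 35.7 ± 0.595 to 47.6 ± 2.82 CPM (0.41, SE 0.07, adjusted p = 0.00105), and Jag1, a ligand of the other family, rose (0.57, SE 0.10, adjusted p = 0.00133). Heyl, a Notch-responsive repressor gene, fell in null HO (-2.71, SE 0.37, adjusted p = 0.000238).

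Of 22 proneural and bHLH-related genes tested, 15 were called lower and 1 higher in null HO (median -1.64), and 5 lower and 0 higher in CD HO (median -0.49; 10 lower without CD WT replicate 2, 2 without replicate 1). Ebf2, a factor of the Ebf family that acts in newborn neurons, fell from 19.5 ± 1.2 to 3.36 ± 1.02 CPM in null HO (-2.52, SE 0.24, adjusted p = 1.91e-05) and from 11.4 ± 4.21 to 4.24 ± 0.311 CPM in CD HO (-1.43, SE 0.24, adjusted p = 0.00216). Ebf1 (-1.76) and Ebf3 (-2.19) fell in null HO too, and Ebf1 in CD HO (-1.04). Nhlh2, the paralogue of Nhlh1, fell from 2.92 ± 0.792 to 0.143 ± 0.0937 CPM in null HO (-4.32, SE 0.58, adjusted p = 0.000191), close in size to Nhlh1; the difference between them was not tested.

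Neural progenitor genes were called in both directions. Of 20, 7 were called lower and 3 higher in null HO (median -0.19) and 3 lower and 1 higher in CD HO (median -0.11; 5 and 2 without CD WT replicate 2, 2 and 0 without replicate 1). Their summed level was 2065 to 2178 CPM in null WT and 2127 to 2363 CPM in null HO. Over all 12 embryo libraries it was 2065 to 2453 CPM, with its highest value in CD WT replicate 2. The sum includes Lin28a, which alone went from 559 ± 8.11 CPM in null WT to 1077 ± 9.17 CPM in null HO. A similar sum therefore does not mean that the other genes of the list kept their level. Pax6, a progenitor factor upstream of Neurog2 in several regions, fell from 51.5 ± 0.479 to 23.8 ± 2.33 CPM in null HO (-1.11, SE 0.10, adjusted p = 1.58e-05). Nes, the progenitor intermediate filament gene (-1.54, adjusted p = 3.82e-05), and Fabp7, a fatty-acid-binding protein of radial glia (-3.18, adjusted p = 4.95e-05), fell with it. Lin28a, an RNA-binding protein of early progenitors, rose from 559 ± 8.11 to 1077 ± 9.17 CPM (0.95, SE 0.13, adjusted p = 0.00028). Sox3, a progenitor transcription factor, was called higher in CD HO against CD WT (0.67, SE 0.19, adjusted p = 0.0284). That call was lost without CD WT replicate 1, and the groups also differ in sex.

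Of 31 pan-neuronal genes tested, 18 were called lower and 2 higher in null HO (median -0.60) and 5 lower and 1 higher in CD HO (median -0.29). Tubb3, the neuronal beta-tubulin, fell from 28.2 ± 1.76 to 4.83 ± 0.253 CPM in null HO (-2.54, SE 0.13, adjusted p = 1.42e-07) and from 16.7 ± 2.71 to 6.23 ± 0.387 CPM in CD HO (-1.42, SE 0.13, adjusted p = 3.23e-05). Srrm4, a neuronal splicing regulator, fell in null HO (-2.03, SE 0.23, adjusted p = 6.71e-05), and Ncam1, a neural cell adhesion gene, in both (-0.75 and -0.58). Stmn3, a relative of Stmn2, fell in CD HO from 1.29 ± 0.41 to 0.372 ± 0.201 CPM (-1.80, SE 0.41, adjusted p = 0.0119), although Stmn2 itself did not pass.

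Factors of particular neuron types went in both directions: of 26 tested, 10 were called lower and 6 higher in null HO (median -0.23), and 3 lower and 1 higher in CD HO (median -0.01; 4 lower and 4 higher without CD WT replicate 2, 1 lower and 2 higher without replicate 1). Lhx9, a factor of dorsal interneurons and limb, fell in null HO (-2.50, SE 0.34, adjusted p = 0.000201), as did the neurotrophin receptor gene Ntrk2 (-1.60, adjusted p = 0.000124). Pou4f1, which encodes the sensory neuron factor Brn3a, rose while the neurogenins fell: from 3.47 ± 0.283 to 7.96 ± 1.12 CPM in null HO (1.20, SE 0.17, adjusted p = 0.000303). In CD HO it rose from 3.07 ± 0.311 to 8.11 ± 0.594 CPM (1.40, SE 0.18, adjusted p = 0.000331), a call kept without either CD WT library (1.30 and 1.496). Ret, a receptor of enteric and motor neurons and of the early kidney duct, rose in null HO (0.85, SE 0.11, adjusted p = 0.000187).

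Marker lists of other cells in the samples were counted in the same way. Of 9 neural crest and glia genes, 3 were called lower and 2 higher in null HO and 3 lower and 1 higher in CD HO (1 lower and 0 higher without CD WT replicate 1), with Tfap2b, a crest factor, at -1.14 and -0.66. Of 10 genes listed for pancreas and gut endocrine cells, sites where Neurod1 and Isl1 also act, 4 passed the filter. Of these 4, 1 was called higher (Nkx6-1, 0.68) and 1 lower (Sox9, -0.28) in null HO. So few genes do not describe those cells. Of 11 visceral endoderm genes tested, 1 was called lower in null HO (Trf, -1.97) and 10 in CD HO (median -3.83; 7 without CD WT replicate 2), among them Apoa1 at -6.58 (adjusted p = 0.00197). Of 12 primitive erythroid genes, 6 were called lower in null HO, such as Klf1 (-1.90, adjusted p = 0.018), and 0 in CD HO by edgeR (0 with an unadjusted p under 0.05, and 0 by DESeq2). All 12 changes in CD HO were below 0 (median -0.75), as were 9542 of the 19215 genes tested. The summed level of the 12 differed widely between the null HO libraries, at 101 and 1380 CPM. The part of these cells in the values of the 10 genes was not tested.

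**Figure D3:**
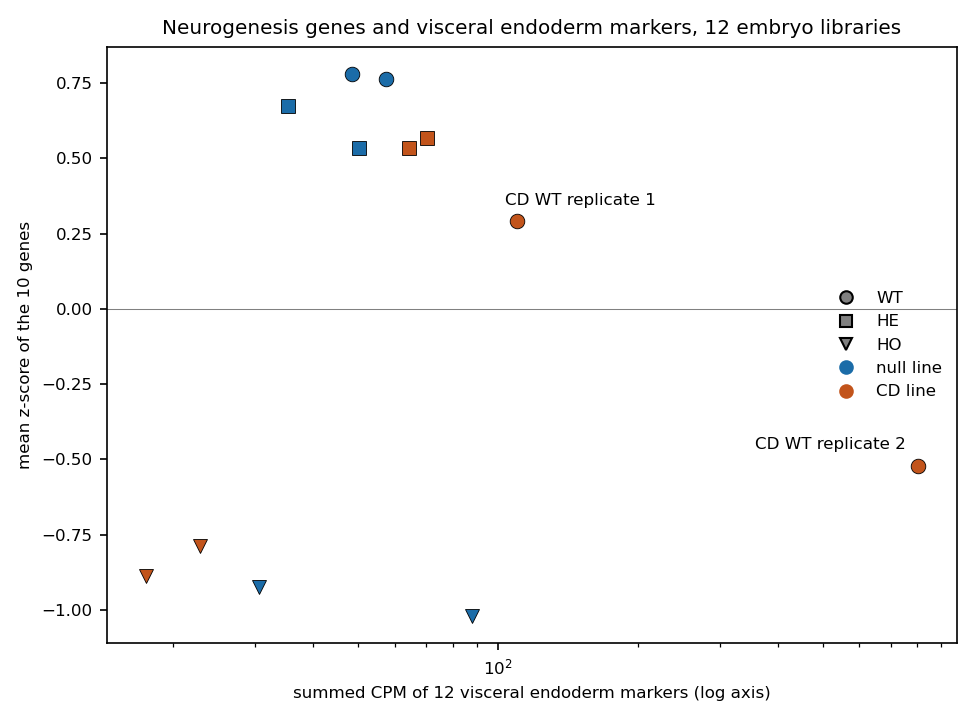
Mean z-score of the 10 genes (vertical axis) against the summed CPM of 12 visceral endoderm markers (horizontal log axis) in the 12 embryo libraries. The 4 HO libraries lie at -1.02 to -0.79 with 17.5 to 88.1 CPM of the markers, and CD WT replicate 2 lies at -0.52 with 803.6 CPM, apart from all others.

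Over the 12 embryo libraries, the 8 genes other than Isl1 and Stmn2 varied together, with Pearson's r between pairs of 0.482 to 0.975 (28 pairs). With the mean of the other 9 genes, r was 0.985 for Elavl3, 0.977 for Elavl4 and 0.974 for Dcx. It was 0.929 for Nhlh1, 0.899 for Neurog2, 0.891 for Neurog1, 0.846 for Hes5, 0.618 for Neurod1, 0.499 for Isl1 and -0.504 for Stmn2. These correlations are descriptions over libraries that share groups, stage and depth. The mean z-score of the 10 genes was 0.78 and 0.76 in null WT, 0.54 and 0.67 in null HE, and -1.02 and -0.92 in null HO. It was 0.29 and -0.52 in CD WT, 0.57 and 0.53 in CD HE and -0.79 and -0.89 in CD HO. The 8 other genes whose levels were most like this mean were Fsd1l (r = 0.996), Prrx1 (0.992), Tmsb4x (0.992), Nudt4 (0.991), Mir100hg (0.991), Dpysl3 (0.990), Zbtb18 (0.990) and Rgs16 (0.990). They were chosen by a mean that was lowest in the HO libraries, so a fall in HO follows from the choice and is not a separate result. Of these, Prrx1, a factor of limb and craniofacial mesenchyme, fell by 1.67 on the log2 scale in null HO and by 0.88 in CD HO. Dpysl3 encodes a protein of growing axons (-0.86 and -0.33), and the host transcript Mir100hg had the largest change (-3.10 and -1.54).

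In yolk sacs, which hold no neural tube, the genes were near the limit of counting. Neurog1 and Hes5 had 0 counts in all 12 libraries, and Neurog2 and Dcx had 1 count each. A count of 0 allows up to 3 counts in a library, so such low levels were not detectable at this depth; these limits cover counting error only. Neurod1 had 10 counts over the 12 libraries, 8 of them in null HO (3 and 5) and 2 in CD HO replicate 1, and Nhlh1 14, with 1 and 8 in null HO. Elavl3 had 23, with 4 and 8 in CD HO and at most 4 elsewhere. Isl1 (152 counts) and Elavl4 (141 counts) were found in all 12 libraries, at 0.186 to 1.12 and 0.0935 to 1.26 CPM.

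Of the 3 genes tested in yolk sacs, Stmn2 was called lower in null HO against the libraries labelled WT (3.97% of genes tested were called lower). It had 28 and 27 counts in the null libraries labelled WT, 36 and 46 in null HE and 0 and 0 in null HO, so its level was at least 18.6-fold lower in HO against a floor of 3 counts over the group (adjusted p = 0.0136). The call was lost without any 1 of the 4 libraries, with adjusted p of 0.056 to 0.0983. In the CD line it had 23 and 19 counts in WT, 36 and 5 in HE and 0 and 2 in HO, a ratio of HO to WT of 0.0506 (exact 95% interval 0.00593 to 0.194, counting error only). This change, -4.13 (SE 1.08), did not pass in edgeR (adjusted p = 0.0641; 1.89% of genes tested were called lower, and 1 of the 3 had an unadjusted p under 0.05) and passed in DESeq2 (DESeq2 adjusted p = 0.0194). The CD WT and CD HO yolk sacs also differed in sex, and with a sex term the change was -3.89 (adjusted p = 0.298).

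**Figure D4:**
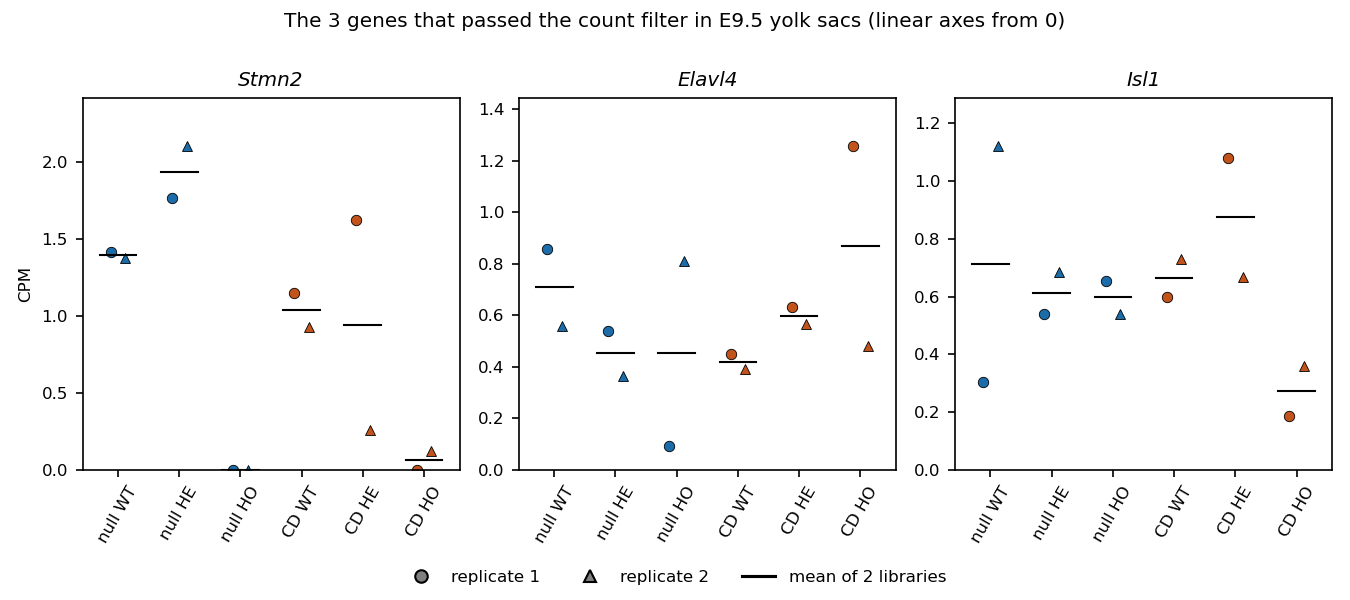
Levels in CPM (vertical axes, linear from 0) of Stmn2, Elavl4 and Isl1 in the 12 yolk sac libraries, by line and labelled genotype; circles and triangles are replicates 1 and 2 and bars are means of 2 libraries. Stmn2 is at 0 in both null HO libraries and at 0 and 0.12 CPM in CD HO, while Elavl4 and Isl1 overlap between null WT and null HO.

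Isl1 (-0.25 in null HO, adjusted p = 0.872, and -1.30 in CD HO, adjusted p = 0.343) and Elavl4 (-0.68, adjusted p = 0.678, and 1.06, adjusted p = 0.49) did not pass in yolk sacs. Elavl4 read 2 and 15 counts in null HO and 27 and 8 in CD HO, a spread wider than that between the groups. Stmn2 thus differed in the tissues: in embryos it held 5.92 to 15.8 CPM with no call in HO against WT, and in yolk sacs 0 to 2.10 CPM with its lowest values in HO. The tissues were fitted separately, and this difference was not tested.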

How the data were processed

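Messenger RNA of whole embryos and yolk sacs was sequenced in 24 libraries. The submitters' processing notes list fastp 0.22.0, HISAT2 2.2.1, featureCounts 2.0.1, DESeq2 1.32.0 and the build mm10. The authors deposited 1 table per tissue with raw read counts per gene, FPKM values and gene lengths. Deposited FPKM values matched count over length and total within 0.001 of the value and served only to compare genes.

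From the counts, edgeR 4.0.16 (R 4.3.3) fitted each tissue with all 12 libraries, 1 coefficient per group, TMM scaling and the quasi-likelihood test. After filterByExpr with a minimum count of 10 and a total of at least 15, the fits held 19215 embryo and 17755 yolk sac genes, and p-values were Benjamini-Hochberg adjusted over them at 0.05. The spread had 6 residual degrees of freedom. In simulated counts with changes placed in null HO embryos (18814 genes tested), the fit recovered 96% of 100 changes of 1 log2 unit. Of its 205 calls, 9 were false. The simulation changed only well-counted genes, far fewer than were called here, and gave every gene the same spread. It therefore does not show the power for genes of low count such as Nhlh1. Alternatives were other scalings, DESeq2 1.42.0, no filter, a replicate block, a sex term, fewer libraries and each replicate left out.

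The 10 genes and the lists were chosen with earlier results of these data known. Named beside the 10 are genes among the 4 called with smallest p per list in a homozygous embryo comparison. The 8 most alike genes were taken by Pearson's r with the mean z-score of log2 CPM (prior count 2, mean of at least 1 CPM). The promoter windows shown were chosen after their letters were seen, and the base next to the start was left off. Gene positions are from GENCODE M21.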

Additional observations from a re-analysis of the deposited data

Results flagged for a closer look

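In 5 differences between the lines, every HE library lay above every WT library in the CD line and below in the null line. The difference was not tested as such. How many of all genes met the same rule was not counted, so the 5 are not a result about these genes. In embryos, HE minus WT was 2.74 CPM in the CD line and -0.993 in the null line for Neurog1, 3.46 and -1.60 for Neurog2, 0.921 and -0.593 for Hes5, and 2.48 and -1.44 for Neurod1. All 4 use the library CD WT replicate 2, which held 803.6 CPM of visceral endoderm markers, and the part of that library was not tested. In yolk sacs, HE minus WT for Elavl4 was 0.179 CPM in the CD line and -0.257 in the null line.

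In 4 cases HO minus WT went opposite ways in the tissues, also untested and without a count over all genes. In the null line it was 0.205 CPM in yolk sac and -3.77 in embryo for Neurod1, and 0.239 and -2.19 for Nhlh1. In the CD line it was 0.259 CPM in yolk sac and -1.99 in embryo for Elavl3, and 0.448 and -4.51 for Elavl4. The yolk sac values rest on few counts: 3 and 5 in null HO against 0 in the libraries labelled WT for Neurod1, and at most 8 in a library for Nhlh1 and Elavl3.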

How the results depend on the processing

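The count of members called changed by over 1.5 times in 25 of 118 alternatives, all in comparisons of the CD line or in yolk sacs; in null HO against WT and against HE embryos it was 7 to 8 throughout. Which members were called there differed between fits, in Neurod1 and Isl1. Without a count filter the count was 7 (lower) for CD HO against WT (6.18% of all genes tested were lower). It was 8 for CD HE against WT (1.9% of all genes tested called) and 6 for the CD minus null effect (2.59%). For CD WT against null WT it was 8 (3.54%), and 1 for CD HO against WT yolk sacs (5%). With DESeq2 it was 1 for the CD minus null effect (0.992%) and 3 for CD WT against null WT (2.63%). For CD HO against WT yolk sacs DESeq2 gave 1 (7.47%). The share of all genes called also varied when 1 library was left out. For CD HO against WT and CD HO against HE embryos it was lower in each such fit than in the main fit (16.1% and 22.1%). CD HO against WT embryos gave 1 with a sex term (5.79% of all genes tested called) and 1 from the compared libraries alone (8.33%). Leaving out 1 library gave 1 to 7 called there (main 3), 0 to 8 for CD HE against WT, 3 to 4 for CD HO against HE (main 8), 0 to 8 for the CD minus null effect, 0 to 8 for CD WT against null WT, and 0 in null HO against WT yolk sacs (main 1). The replicate block gave 8 in null HO against WT and 3 in CD HO against WT and changed no count; deviations of same-numbered libraries correlated at -0.114 to 0.0778 over 15 pairs of groups, so the numbers do not pair the libraries. Leaving CD WT replicate 2 out of the fit, chosen after seeing the data, called 8 in null HO against WT.

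Signs turned in 28 gene values; the 1 of these that was called, Neurod1 at 4.01, rests on 1 count. With a sex term, null HE against WT was -0.0109 for Nhlh1, 0.27 for Isl1, 0.0194 for Dcx, 0.0858 for Elavl3, -0.0847 for Elavl4 and 0.14 for Stmn2, CD HE against WT was -0.16 for Isl1, and CD WT against null WT 0.21 for Isl1. Leaving out 1 library gave ranges (log2). For null HO against WT they were -0.62 to 0.11 for Isl1 and -0.13 to 0.26 for Stmn2. For CD HO against WT they were -1.52 to 0.998 for Neurog1, -1.23 to 0.22 for Neurog2, -1.28 to 4.01 for Neurod1, -2.75 to 1.48 for Nhlh1 and -1.01 to 0.25 for Stmn2. For null HE against WT they were -0.20 to 0.86 for Nhlh1, -0.20 to 0.22 for Elavl4 and -0.16 to 0.10 for Stmn2. For CD HE against WT they were -0.001044 to 0.0635 for Isl1. For null HO against HE they were -0.51 to 0.22 for Isl1 and -0.0922 to 0.30 for Stmn2. For CD minus null HO effect they were -0.41 to 0.30 for Isl1 and -1.10 to 0.18 for Stmn2. For CD WT against null WT they were -0.00592 to 1.27 for Stmn2. For null HO against WT in yolk sacs they were -0.90 to 0.96 for Isl1 and -2.86 to 0.18 for Elavl4. The causes were not tested.

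Low counts limit Nhlh1 in HO embryos and the yolk sac values. Nhlh1 in CD HO against WT could not be fitted from the compared libraries alone, since it did not pass the filter there.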
